A study of Mus musculus with 28 samples.

Results

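The 10 elastic fibre genes Eln, Fbn1, Fbn2, Fbln1, Fbln2, Fbln5, Efemp1, Efemp2, Mfap2 and Mfap4 were chosen by name, with earlier results of these data known. All 10 were present among the 54429 gene entries of the count table, of which 28192 had a count in any library. The table holds read counts from 28 polyA RNA libraries of O9-1 cells, a mouse line of cranial neural crest cells. This embryonic population contributes to the skull, the face and the wall of vessels near the heart. All libraries come from this 1 line, and each of the 8 groups is a culture medium combined with an oxygen level. Normoxic groups were kept at 21% O2 and hypoxic groups at 0.5% O2, with 4 libraries per normoxic group and 3 per hypoxic group. Proliferating cells were grown in STO-conditioned DMEM with 15% fetal calf serum, 25 ng/ml bFGF and 5 ng/ml LIF. Osteoblast cultures received alpha-MEM with 10% serum, 10 mM beta-glycerophosphate, 0.1 µM dexamethasone and 100 ng/ml BMP-2 for 10 days. Chondrocyte cultures were held in that osteoblast medium for 3 days and then as micromasses on matrigel for 7 days in alpha-MEM with 5% serum, insulin-transferrin-selenium, 0.1 µM dexamethasone, 10 ng/ml TGF-beta3 and 50 ng/ml BMP-2. Smooth muscle cultures were held for 3 days in DMEM with 10% serum. Group names below are the culture labels. The labels do not say whether replicates were separate cultures, so each p-value measures only the spread between these libraries.

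Elastic fibres let arteries, lung and skin recoil after stretch. Cells first lay down microfibrils built of the fibrillins and decorated with microfibril-associated glycoproteins, and tropoelastin is then brought to this scaffold by fibulins and joined into an insoluble core by the lysyl oxidases. Neural crest-derived smooth muscle is a known source of elastin in the great arteries, fibrillin microfibrils also run through cartilage and bone matrix, and the microfibrils hold latent TGF-beta and BMP ligands.

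The libraries held 19869271 to 64693346 counts. In the 3 hypoxic smooth muscle libraries, mitochondrial ribosomal RNA took 11.6% to 13.3% of counts, against at most 0.0889% in the other 25 libraries, and the 10 most abundant genes took 27.1% to 28.5%, against at most 16.5%. The scaling factor that corrects for such composition (TMM) was 0.505 to 0.533 in these 3 libraries and 0.901 to 1.29 in the others. Values of this group therefore depend on the scaling, and they are given beside values scaled by library size alone where the call or direction of a member differs. Replicate 4 of normoxic osteoblast also stood apart from the other 3 libraries of its group, with a chi-square per degree of freedom over genes of 91.1 to 97.1 against it and 2.89 to 3.88 among the other 3.

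The labelled cell types matched their defining markers only in part. Of 4 neural crest genes (Twist1, Tfap2a, Sox10 and Prrx1), Sox10 had no count in either proliferating group. Their sum was 959 to 992 CPM (counts per 1000000 scaled counts) in normoxic and 1142 to 1207 CPM in hypoxic proliferating cells. The summed level of 4 smooth muscle genes (Acta2, Tagln, Cnn1 and Myh11) was 3323 to 3757 CPM (counts per 1000000 scaled counts) in normoxic smooth muscle, but 28.5 to 42.3 CPM in hypoxic smooth muscle, against 36.3 to 43.3 CPM in hypoxic proliferating cells. Normoxic osteoblast libraries held 3064 to 4682 CPM of these smooth muscle genes and 62.7 to 146 CPM of 5 osteoblast genes (Runx2, Sp7, Alpl, Ibsp and Bglap), whose sum was 1053 to 2548 CPM in normoxic chondrocyte. In hypoxic osteoblast the smooth muscle genes summed to 1715 to 2004 CPM and the osteoblast genes to 366 to 393 CPM. The sum of 5 adipocyte genes was 2.52 to 6.08 CPM in normoxic and 20.01 to 23.06 CPM in hypoxic osteoblast, with Adipoq and Lep at 0 in both. Plin1 was also at 0 in normoxic osteoblast, while Cidec had counts there and was at 0 in hypoxic osteoblast. Summed chondrocyte genes (Col2a1, Acan, Sox9, Col9a1 and Matn1) were highest in normoxic chondrocyte, at 2793 to 8413 CPM, and reached 842 to 1255 CPM in hypoxic chondrocyte. In normoxic osteoblast they summed to 179 to 1445 CPM, the highest in replicate 4, which lay above every hypoxic chondrocyte library, and in hypoxic osteoblast to 588 to 631 CPM. Among 4 blood-cell genes, the sum was 33.6 to 37.4 CPM in hypoxic smooth muscle, nearly all of it Cd68, and at most 5.85 CPM elsewhere. Ptprc averaged 0.0926 CPM in hypoxic smooth muscle and Hbb-bs had no count in any library. The part of these differences in the results on the elastic fibre genes was not tested, and in such bulk samples fewer cells of a type and less RNA per cell cannot be told apart.

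RefSeq promoter entries (GRCm38.p6) were present for 7 of the 10 genes. Of these, Fbln5, Fbln1 and Mfap2 were lower at 0.5% O2 in all 3 differentiated states, while with TMM scaling Efemp2 and Efemp1 were not. The 5 windows shown are those that lie wholly or almost wholly before the annotated gene, and the oxygen response did not enter their choice. They run 5′ to 3′ on the gene's strand and end at or near its start, and capitals mark ACGTG or GCGTG on either strand, the core letters of the element that hypoxia-inducible factors bind. Their positions are chr12:101819120-101819369 (minus strand) for Fbln5, chr15:85205699-85205948 (plus) for Fbln1, chr4:141010174-141010417 (plus) for Mfap2, chr19:5473696-5473945 (plus) for Efemp2 and chr11:28852955-28853203 (plus) for Efemp1.
Fbln5: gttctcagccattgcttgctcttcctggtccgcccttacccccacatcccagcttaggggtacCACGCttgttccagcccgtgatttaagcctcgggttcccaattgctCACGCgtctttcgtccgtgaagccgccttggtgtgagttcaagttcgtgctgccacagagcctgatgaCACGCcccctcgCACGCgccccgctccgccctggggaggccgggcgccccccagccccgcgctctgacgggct
Fbln1: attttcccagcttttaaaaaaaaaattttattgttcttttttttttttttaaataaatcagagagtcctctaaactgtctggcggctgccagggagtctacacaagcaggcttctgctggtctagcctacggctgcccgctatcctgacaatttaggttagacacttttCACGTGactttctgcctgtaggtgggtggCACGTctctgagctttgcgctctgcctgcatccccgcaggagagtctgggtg
Mfap2: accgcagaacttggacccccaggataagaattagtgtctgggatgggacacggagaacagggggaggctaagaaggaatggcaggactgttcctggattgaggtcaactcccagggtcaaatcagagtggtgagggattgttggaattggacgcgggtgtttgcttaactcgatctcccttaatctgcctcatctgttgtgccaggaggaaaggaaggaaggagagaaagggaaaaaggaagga
Efemp2: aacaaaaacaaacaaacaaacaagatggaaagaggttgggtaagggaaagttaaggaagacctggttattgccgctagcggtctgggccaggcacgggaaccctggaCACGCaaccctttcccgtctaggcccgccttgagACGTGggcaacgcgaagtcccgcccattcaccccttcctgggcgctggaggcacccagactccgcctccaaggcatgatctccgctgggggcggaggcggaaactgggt
Efemp1: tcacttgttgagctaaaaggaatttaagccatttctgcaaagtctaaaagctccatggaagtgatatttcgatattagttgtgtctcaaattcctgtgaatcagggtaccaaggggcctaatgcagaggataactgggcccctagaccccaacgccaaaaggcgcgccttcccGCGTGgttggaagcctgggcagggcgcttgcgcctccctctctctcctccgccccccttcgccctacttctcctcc
In the windows shown, Fbln5 held 4 such matches, Fbln1 3, of which a pair overlaps in the palindrome CACGTG, Efemp2 2, Efemp1 1 and Mfap2 none. A second Mfap2 window, for a start further downstream (chr4:141010431-141010680), held 1 match. The second Fbln1 window, which overlaps the first, held 4, and the other windows of Fbln5 and Efemp2 held none. The Fbn1 and Fbln2 windows held none of the 3 motifs searched. In all, 6 of 12 windows held a match, the overlapping Fbln1 windows both among them, and these belong to 5 of 7 genes. Of all 32851 promoter entries, 38.6% held at least 1 match in the 250 bases before the start. That share is per window and not per gene, since a gene can have more than 1 window. A SMAD letter string, CAGAC on either strand, was found in the windows shown of Fbln1, Efemp2 and Mfap2, in the other Fbln5 window and in 42.2% of all entries, and an AP-1 string, TGANTCA, in Efemp1 and in 6.75% of all entries. Each match is a description of letters and was not tested as a site.

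Elastin, encoded by Eln (ENSMUSG00000029675, chromosome 5, 134702593 to 134747323, minus strand, GRCm38), is the rubber-like core of the fibre. Eln transcripts were found almost entirely in the 3 differentiated normoxic groups, at a lower level in smooth muscle than in chondrocyte and osteoblast. In normoxic chondrocyte the 4 libraries held 71.2, 62.3, 121 and 73.3 CPM, in normoxic osteoblast 48.9, 51.5, 51.2 and 84.3 CPM, and in normoxic smooth muscle 2.97, 4.03, 4.09 and 9.21 CPM. No read was counted in the 4 normoxic proliferating, 3 hypoxic proliferating or 3 hypoxic smooth muscle libraries. Hypoxic chondrocyte libraries held 0.580, 0.158 and 0.197 CPM and hypoxic osteoblast libraries 0.658, 0.103 and 0.0352 CPM. Every library of the 3 differentiated normoxic groups lay above every hypoxic library.

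Against normoxic proliferating cells, where a count of 0 was set to 3 counts over the group (0.0177 CPM), Eln was at least 4652-fold higher in normoxic chondrocyte, at least 3382-fold higher in normoxic osteoblast and at least 288-fold higher in normoxic smooth muscle. Without normoxic proliferating replicate 2, the deepest library, these bounds were 2626, 1909 and 162. At 0.5% O2 the same bound over hypoxic proliferating cells was at least 9.43-fold for chondrocyte, from 28 counts, and at least 7.38-fold for osteoblast, from 21 counts. Replicate 1 held 18 of the 28 chondrocyte counts and 17 of the 21 osteoblast counts, and without it the bounds were 5.24-fold and 2.04-fold, the latter from 4 counts. Without hypoxic proliferating replicate 1 they were 6.13-fold and 4.79-fold. The oxygen contrast within a lineage was a log2 fold change of -7.98 ± 0.45 (SE) in chondrocyte (edgeR quasi-likelihood test, adjusted p = 5.18e-05) and -7.84 ± 0.57 in osteoblast (adjusted p = 2.33e-05). As a ratio of pooled counts these differences were 255-fold (176 to 384) and 237-fold (155 to 383), with 95% Clopper-Pearson intervals that cover counting error only. Without hypoxic replicate 1 of the state they were 458-fold in chondrocyte and 858-fold in osteoblast (fitted log2 fold changes -8.80 and -9.64, adjusted p = 0.00034 and 1.96e-05), so the size of the fall, unlike its direction, depends on that library. In smooth muscle Eln was at least 57.8-fold lower at 0.5% O2 (adjusted p = 4.82e-06). Over the 3 hypoxic smooth muscle libraries, 3 counts correspond to 0.0878 CPM, which sets this bound, and without hypoxic smooth muscle replicate 1 the bound was 35.2-fold.

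Among the normoxic groups, Eln was lower in smooth muscle than in chondrocyte (log2 fold change -3.97 ± 0.41, adjusted p = 9.75e-05) and lower than in osteoblast (log2 fold change -3.53 ± 0.37, adjusted p = 8.03e-05). Chondrocyte and osteoblast overlapped (log2 fold change of osteoblast over chondrocyte -0.45 ± 0.24, adjusted p = 0.14). Without replicate 4 of normoxic osteoblast that difference was -0.68, with an adjusted p of 0.0336. The antisense gene Gm30003, whose exons overlap Eln, had 36 counts over all libraries against 16859 for Eln.

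**Figure D1:**
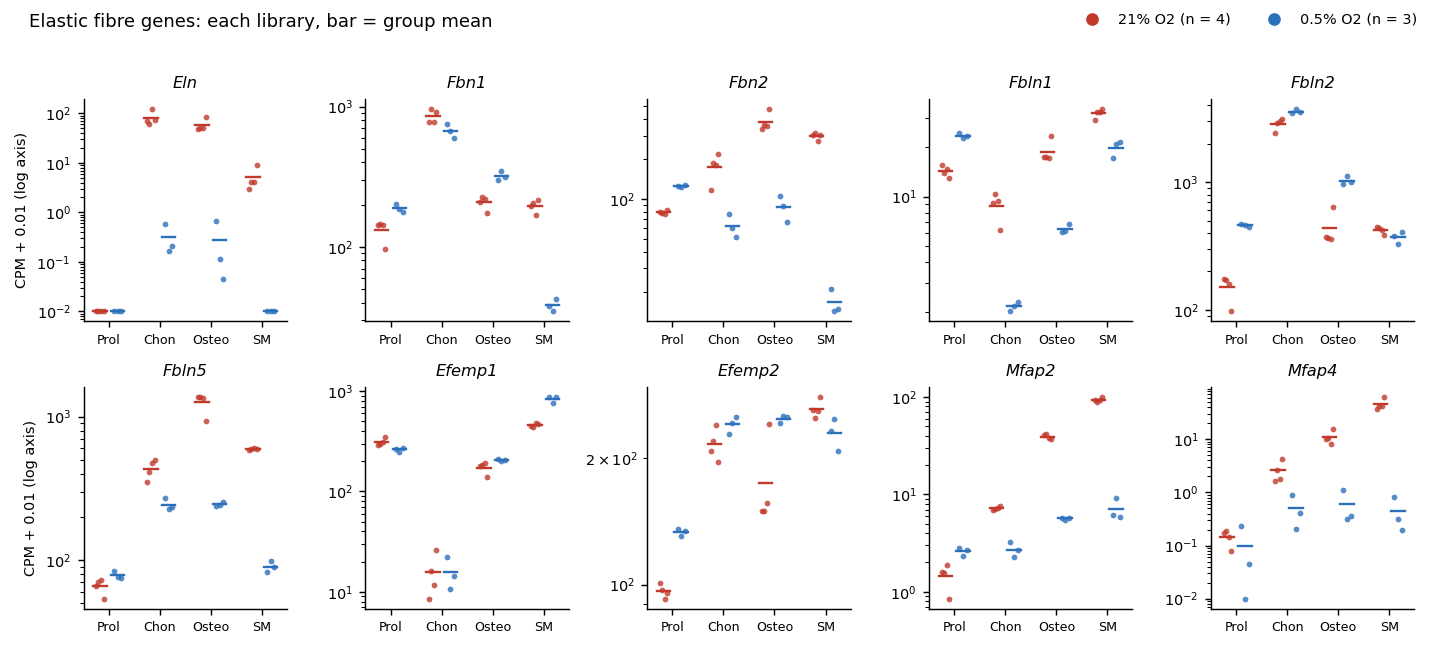
Level of each of the 10 genes in each of the 28 libraries, as CPM plus 0.01 on a log axis that differs between panels (Prol, proliferating; Chon, chondrocyte; Osteo, osteoblast; SM, smooth muscle; red, 21% O2; blue, 0.5% O2; bars, group means). Eln sits at 0 in both proliferating groups and in hypoxic smooth muscle, and Fbln5, Mfap2 and Mfap4 are lower in blue than in red in all 3 differentiated states.

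The fibrillins are the long rod-like glycoproteins that assemble into microfibrils. Fbn1 (chromosome 2, 125300594 to 125507993, minus strand) encodes the main postnatal form, mutated in Marfan syndrome. Fbn1 was highest in chondrocyte at both oxygen levels, with 775 to 956 CPM in normoxic and 597 to 752 CPM in hypoxic libraries. Normoxic proliferating, osteoblast and smooth muscle libraries held 97.3 to 146, 175 to 228 and 170 to 216 CPM. Hypoxic proliferating and hypoxic osteoblast libraries held 179 to 202 and 302 to 345 CPM, and the 3 hypoxic smooth muscle libraries were lowest of all, at 38.2, 34.7 and 42.8 CPM. At 0.5% O2 Fbn1 was higher in proliferating cells (log2 fold change 0.57 ± 0.13, adjusted p = 0.00574) and in osteoblast (0.62 ± 0.10, adjusted p = 0.000939). It was lower in smooth muscle (log2 fold change -2.29 ± 0.11, adjusted p = 4.31e-11, and -3.66 when scaled by library size alone). In chondrocyte the log2 difference of -0.35 ± 0.10 passed the test (adjusted p = 0.0254) and missed it without normoxic chondrocyte replicate 2 (-0.29, adjusted p = 0.0866) or without hypoxic chondrocyte replicate 2 (-0.35, adjusted p = 0.0814) or 3 (-0.28, adjusted p = 0.137).

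Fbn2 encodes fibrillin-2, the form most prominent in embryonic microfibrils. Its 4 normoxic osteoblast libraries held 340, 363, 354 and 475 CPM, its normoxic smooth muscle libraries 305, 316, 274 and 306 CPM and its normoxic chondrocyte libraries 116, 187, 180 and 218 CPM. At 0.5% O2 the values were 105, 87.9 and 67.2 CPM in osteoblast, 20.9, 14.2 and 14.7 CPM in smooth muscle and 77.6, 60.0 and 51.5 CPM in chondrocyte. Proliferating cells held 76.5 to 82.7 CPM at 21% and 123 to 128 CPM at 0.5% O2. The groups did not overlap in any of the 4 oxygen contrasts, and proliferating cells went the other way from the differentiated states. Fbn2 rose at 0.5% O2 in proliferating cells (log2 fold change 0.71 ± 0.05, adjusted p = 2.59e-08). It fell in chondrocyte (-1.48 ± 0.24, adjusted p = 0.00522), in osteoblast (-2.15 ± 0.18, adjusted p = 1.58e-05) and in smooth muscle (-4.10 ± 0.13, adjusted p = 4.73e-13).

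The balance of the fibrillins can be read within a library, where no scaling enters. Per kilobase of annotated exon, Fbn2 made up 35.9% ± 5.34 (SD, n = 4) of fibrillin reads in normoxic proliferating cells, 15.7% ± 2.71 in chondrocyte, 62.6% ± 5.86 in osteoblast and 58.3% ± 1.31 in smooth muscle. The same share at 0.5% O2 was 37.9% ± 1.76 (SD, n = 3) in proliferating cells, 7.87% ± 0.70 in chondrocyte, 19.8% ± 3.96 in osteoblast and 28.2% ± 4.81 in smooth muscle. Fibrillin-2 reads thus outnumbered fibrillin-1 reads per length in normoxic osteoblast and smooth muscle only, and in none of the hypoxic groups. This share was chosen with the levels known and is given without a test.

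**Figure D2:**
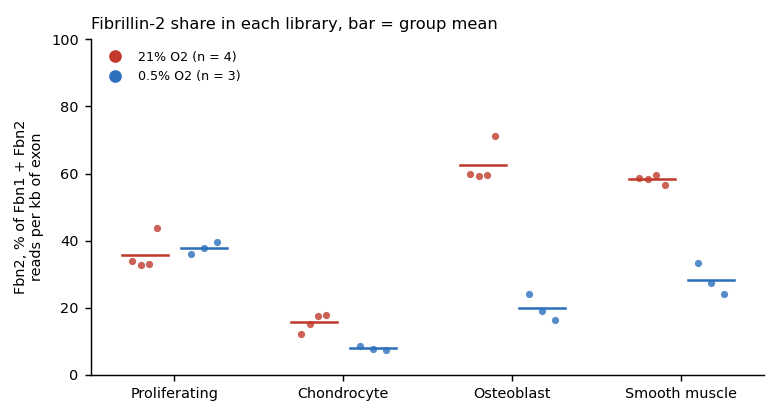
Fbn2 as a percentage of Fbn1 plus Fbn2 reads per kilobase of exon in each library (points; bars, group means; red, 21% O2; blue, 0.5% O2). Normoxic osteoblast and smooth muscle libraries lie between 56.5% and 71.4%, and no hypoxic library exceeds 39.7%.

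Mfap2 and Mfap4 encode microfibril-associated glycoproteins. MAGP-1, the Mfap2 product, binds fibrillin and tropoelastin, and the Mfap4 product binds elastin and fibrillin and is known from vessel walls. Mfap2 (chromosome 4, 141010418 to 141015984, plus strand) held 93.5, 89.8, 93.1 and 101 CPM in normoxic smooth muscle, 40.4, 41.4, 38.2 and 37.3 CPM in normoxic osteoblast and 6.94 to 7.68 CPM in normoxic chondrocyte. At 0.5% O2 the respective values were 6.15, 9.08 and 5.83 CPM, 5.73, 5.46 and 5.77 CPM, and 3.22, 2.24 and 2.66 CPM. Normoxic proliferating libraries held 0.840 to 1.86 CPM and hypoxic proliferating libraries 2.33 to 2.80 CPM. Every normoxic library of a differentiated state was thus above every hypoxic library of the same state. The oxygen contrast was a log2 fold change of -1.42 ± 0.17 in chondrocyte (adjusted p = 0.000155), -2.80 ± 0.09 in osteoblast (adjusted p = 1.17e-07) and -3.70 ± 0.14 in smooth muscle (adjusted p = 4.10e-12), and in proliferating cells 0.88 ± 0.26 (adjusted p = 0.0076).

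Mfap4 (chromosome 11, 61485431 to 61488900, plus strand) was ordered among the normoxic groups as Mfap2 was. Its libraries held 37.2, 41.4, 41.9 and 63.4 CPM in normoxic smooth muscle, 10.1, 10.7, 8.24 and 15.6 CPM in osteoblast, 1.64, 2.59, 1.78 and 4.33 CPM in chondrocyte and 0.0700 to 0.176 CPM in proliferating cells. All 12 hypoxic libraries held at most 1.08 CPM. Hypoxic smooth muscle had 16 counts and normoxic smooth muscle 6376, a 98.2-fold difference (60.4 to 172, counting error only). The fitted log2 fold changes at 0.5% O2 were -2.34 ± 0.51 in chondrocyte (adjusted p = 0.00769), -4.28 ± 0.43 in osteoblast (adjusted p = 5.83e-05) and -6.55 ± 0.33 in smooth muscle (adjusted p = 1.23e-10). Replicate 1 of each hypoxic state held most of these counts, with 28 of 45 in chondrocyte, 28 of 47 in osteoblast and 11 of 16 in smooth muscle. Without it the log2 fold changes were -3.08, -5.05 and -7.51 (adjusted p = 0.00342, 6.17e-05 and 1.92e-09), and the smooth muscle ratio of pooled counts was 192-fold. In proliferating cells Mfap4 was below the filter, with 25 counts at 21% and 8 counts at 0.5% O2. The neighbouring gene Mapk7, on the opposite strand with overlapping exons, had 22492 counts against 8092 for Mfap4; whether the counting used strand is not given in the sources used here, and without it reads of this pair cannot be told apart.

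Fbln5 (chromosome 12, 101746565 to 101819055, minus strand) encodes fibulin-5, which tethers tropoelastin and lysyl oxidase-like 1 to the microfibril and is required for normal elastic fibres in mice. It was the most abundant of the 10 in CPM per kilobase in normoxic osteoblast, with a mean of 182, and its 4 libraries there held 1374, 1378, 1344 and 939 CPM. Normoxic smooth muscle libraries held 582, 593, 605 and 598 CPM and normoxic chondrocyte libraries 347, 410, 474 and 500 CPM. Hypoxic libraries held 238, 244 and 254 CPM in osteoblast, 83.0, 98.1 and 88.7 CPM in smooth muscle and 271, 227 and 233 CPM in chondrocyte. No library overlapped between oxygen levels in these states. Fbln5 fell at 0.5% O2, with log2 fold changes of -0.83 ± 0.12 in chondrocyte (adjusted p = 0.000772), -2.36 ± 0.15 in osteoblast (adjusted p = 2.76e-06) and -2.66 ± 0.08 in smooth muscle (adjusted p = 4.49e-13). Proliferating cells held 53.8 to 73.1 CPM at 21% and 75.4 to 83.2 CPM at 0.5% O2, a log2 fold change of 0.31 ± 0.08 (adjusted p = 0.00626) in the other direction. That call was lost in 1 fit over 8 groups (0.25, adjusted p = 0.0823).

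Efemp2 (chromosome 19, 5473954 to 5482517, plus strand) encodes fibulin-4, which brings lysyl oxidase to tropoelastin and without which mice make no intact elastic fibres. Its group means spanned the narrowest range, as a ratio, of the 10 genes. They ran from 96.5 ± 3.57 CPM (SD, n = 4) in normoxic proliferating to 263 ± 13.2 CPM (SD, n = 4) in normoxic smooth muscle, and from normoxic smooth muscle down the order to normoxic osteoblast each group's range overlapped that of the next. Oxygen moved it in proliferating cells (log2 fold change 0.52 ± 0.05, adjusted p = 3.82e-07). In chondrocyte the values were 196 to 241 and 228 to 251 CPM (log2 fold change 0.15 ± 0.08, adjusted p = 0.19), and in smooth muscle 249 to 281 and 209 to 248 CPM (-0.13 ± 0.08, adjusted p = 0.155). Scaled by library size alone, the smooth muscle contrast was -1.50 with an adjusted p of 2.87e-10, and without hypoxic smooth muscle replicate 2 it was -0.21 (adjusted p = 0.0284). With TMM and no filter it was -0.25 (adjusted p = 0.0104). In osteoblast the difference of 0.51 ± 0.17 (adjusted p = 0.0307) was lost under library size alone (0.35, adjusted p = 0.123) and when any 1 library other than normoxic osteoblast replicate 4 was left out, with adjusted p up to 0.085. Mus81, on the opposite strand with overlapping exons, had 14020 counts against 158771.

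Efemp1 (chromosome 11, 28853204 to 28926743, plus strand) encodes fibulin-3, which in mice supports fascia and lung connective tissue. It was lowest in chondrocyte and, with TMM scaling, highest in smooth muscle at both oxygen levels. Normoxic proliferating libraries held 290 to 350 CPM and normoxic smooth muscle 439 to 478 CPM. Chondrocyte libraries held 8.55, 16.1, 11.6 and 26.3 CPM at 21% and 22.5, 10.8 and 14.2 CPM at 0.5% O2. The log2 fold change over proliferating cells was -4.25 ± 0.33 at 21% O2 (adjusted p = 5.20e-06) and -4.05 ± 0.28 at 0.5% O2 (adjusted p = 6.76e-05), and the test of the difference between the falls gave an adjusted p of 0.73. Hypoxic smooth muscle libraries held 881, 753 and 876 CPM. The rise over normoxic smooth muscle, 0.92 ± 0.08 on the log2 scale (adjusted p = 3.45e-08), became a fall when scaled by library size alone (-0.44, adjusted p = 0.000152), so its direction depends on the scaling. In osteoblast the oxygen contrast was 0.26 ± 0.11 (adjusted p = 0.0683), and it passed without normoxic osteoblast replicate 4 (0.17, adjusted p = 0.0203).

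Fbln1 and Fbln2 encode the larger fibulins of basement membranes and elastic tissue. Fbln1 (chromosome 15, 85205949 to 85286535, plus strand) held 9.14, 10.4, 9.46 and 6.29 CPM in normoxic and 2.00, 2.17 and 2.27 CPM in hypoxic chondrocyte. Osteoblast libraries held 17.1 to 23.3 CPM at 21% and 6.08 to 6.76 CPM at 0.5% O2. Fbln1 fell at 0.5% O2, with log2 fold changes of -2.05 ± 0.20 (adjusted p = 4.09e-05) in chondrocyte, -1.57 ± 0.15 (adjusted p = 3.03e-05) in osteoblast and -0.64 ± 0.12 (adjusted p = 0.000209) in smooth muscle, while it rose by 0.78 ± 0.08 in proliferating cells (adjusted p = 1.98e-06). Scaled by library size alone, the smooth muscle value was -2.01.

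Fbln2 (chromosome 6, 91212455 to 91272540, plus strand) was the most abundant member in chondrocyte, with means of 450 CPM per kilobase at 21% and 561 CPM per kilobase at 0.5% O2, against 10.1 and 0.0385 CPM per kilobase for Eln. Its chondrocyte libraries held 2415, 2902, 3023 and 3119 CPM at 21% and 3449, 3717 and 3550 CPM at 0.5% O2. Fbln2 was the member with the largest rise in proliferating cells at 0.5% O2, from 97.3 to 174 CPM up to 442 to 474 CPM (log2 fold change 1.67 ± 0.20, adjusted p = 0.000389). It was higher in osteoblast as well (1.24 ± 0.21, adjusted p = 0.00101), with 970 to 1117 against 361 to 639 CPM. The chondrocyte difference, 0.31 ± 0.09 (adjusted p = 0.0317), was lost under library size alone (0.24, adjusted p = 0.0715) and when any of normoxic replicates 1, 2 and 3 or hypoxic replicates 2 and 3 was left out. In smooth muscle it did not pass (-0.12 ± 0.08, adjusted p = 0.195) and was -1.49 (adjusted p = 1.11e-09) under library size alone. With TMM and no filter it was -0.24 (adjusted p = 0.011).

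Counted over the members, differentiation at 21% O2 raised 8 of 10 in chondrocyte, 9 of 10 in osteoblast and 10 of 10 in smooth muscle. Over all genes tested, 37.7%, 40.9% and 40.8% rose in these comparisons and 37.2%, 37.8% and 38.9% fell. The members that fell were Efemp1 and Fbln1 in chondrocyte and Efemp1 in osteoblast, where the Fbln1 rise was lost under library size alone (0.31, adjusted p = 0.0501). Their median log2 fold changes were 2.57, 1.96 and 1.76, unaltered with Eln at its bound, against medians over all genes of -0.00294, 0.0656 and 0.0276. These comparisons share the normoxic proliferating libraries. Mfap4 had the largest fitted rise after Eln in osteoblast and smooth muscle (log2 fold change 6.30 ± 0.30 and 8.32 ± 0.27, adjusted p = 5.51e-08 and 2.48e-11), and Fbln2 in chondrocyte (4.33 ± 0.19, adjusted p = 1.05e-08).

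The same media at 0.5% O2 gave both rises and falls. Of 8 members tested, 4 rose and 3 fell in chondrocyte, 5 rose and 3 fell in osteoblast, and 4 rose and 2 fell in smooth muscle; Eln and Mfap4 had too few counts for the test. Over all genes 34.9%, 36.2% and 33.8% rose and 34.6%, 35.1% and 36.2% fell. Fbn2, which rose in all 3 lineages at 21% O2, fell in all 3 at 0.5% O2, with log2 fold changes of -0.998 ± 0.13, -0.54 ± 0.12 and -2.78 ± 0.14 (adjusted p = 0.00014, 0.00151 and 1.06e-08). Mfap2 in chondrocyte was 0.05 ± 0.23 over hypoxic proliferating cells (adjusted p = 0.848). In hypoxic smooth muscle the rises of Fbln5 (0.32 ± 0.09, adjusted p = 0.00728) and Efemp2 (0.91 ± 0.08, adjusted p = 1.75e-06) turned into falls under library size alone (log2 fold change -0.96 and -0.37), and that of Mfap2 (1.55 ± 0.27) became 0.27 with an adjusted p of 0.369. Fbln1 (-0.13, adjusted p = 0.389) and Fbln2 (-0.18, adjusted p = 0.0596) did not pass with TMM and fell under library size alone (-1.41 and -1.46, adjusted p = 8.72e-07 and 3.76e-08). Under that scaling the count in hypoxic smooth muscle was thus 1 rise and 6 falls of 8 members tested, near the shares of all genes that rose (12.4%) and fell (70.6%) there. With TMM, the Fbln5 call was lost without hypoxic proliferating replicate 2 (0.28, adjusted p = 0.0543), and Fbln2 gained one without hypoxic smooth muscle replicate 3 (-0.25, adjusted p = 0.023). Efemp1 rose under both scalings (log2 fold change 1.79 and 0.52), and Fbn1 fell under both (-2.17 and -3.45).

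**Figure D3:**
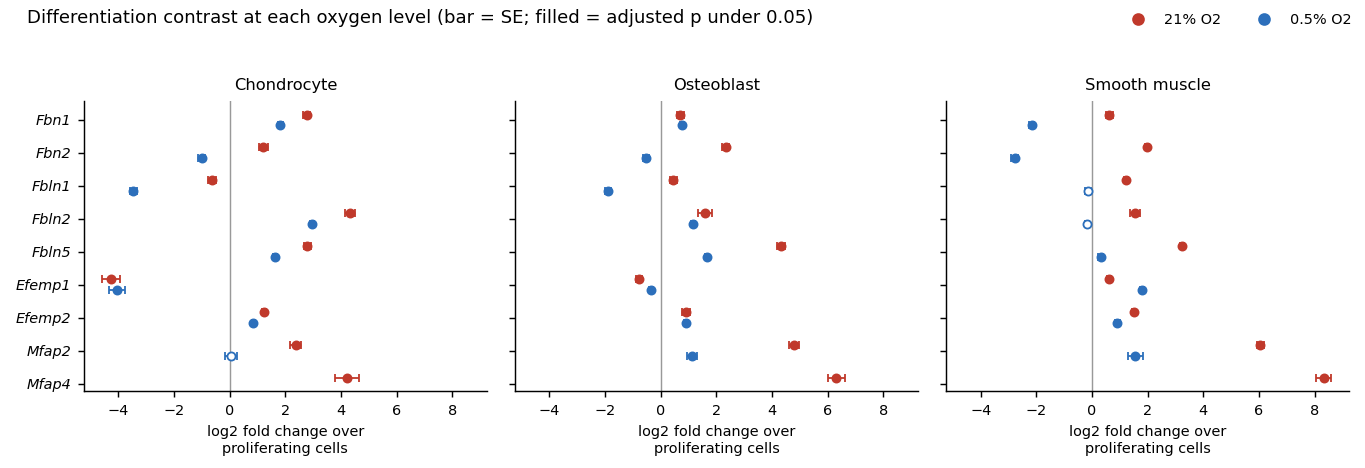
Fitted log2 fold change over proliferating cells at the same oxygen level for 9 of the 10 genes (red, 21% O2; blue, 0.5% O2; bars, SE; filled points, adjusted p under 0.05). Eln is left out because its proliferating libraries hold no count, and Mfap4 has no blue point because it had too few counts; Fbn2 lies right of 0 in red and left of 0 in blue in each lineage.

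Oxygen compared within a state moved the members one way in proliferating cells and mostly the other way after differentiation. In proliferating cells 7 of 8 members tested rose at 0.5% O2 and 1, Efemp1 (-0.19 ± 0.07, adjusted p = 0.0254), fell, against 33.1% and 32.3% of all genes. The Efemp1 call was lost without hypoxic proliferating replicate 1 (adjusted p = 0.0583) or 2 (adjusted p = 0.117). In 1 fit over 8 groups the Efemp1 fall (adjusted p = 0.41) and the Fbln5 rise (adjusted p = 0.0823) were both lost. Of 10 members in chondrocyte, 1 rose and 7 fell, against 10.4% and 11.8% of all genes. In osteoblast 3 rose and 6 fell, against 27.0% and 27.3%, and in smooth muscle 1 rose and 7 fell, against 35.4% and 40.2%. Under library size alone all 10 members fell in smooth muscle and none rose, where 72.6% of all genes fell and 13.4% rose. Their median log2 fold changes were 0.64 in proliferating cells, -1.12 in chondrocyte, -1.86 in osteoblast and -2.48 in smooth muscle, beside 0.0149, -0.00585, -0.0321 and -0.123 over all genes. Eln, Fbn2, Fbln1, Fbln5, Mfap2 and Mfap4 fell in each of the 3 differentiated states.

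**Figure D4:**
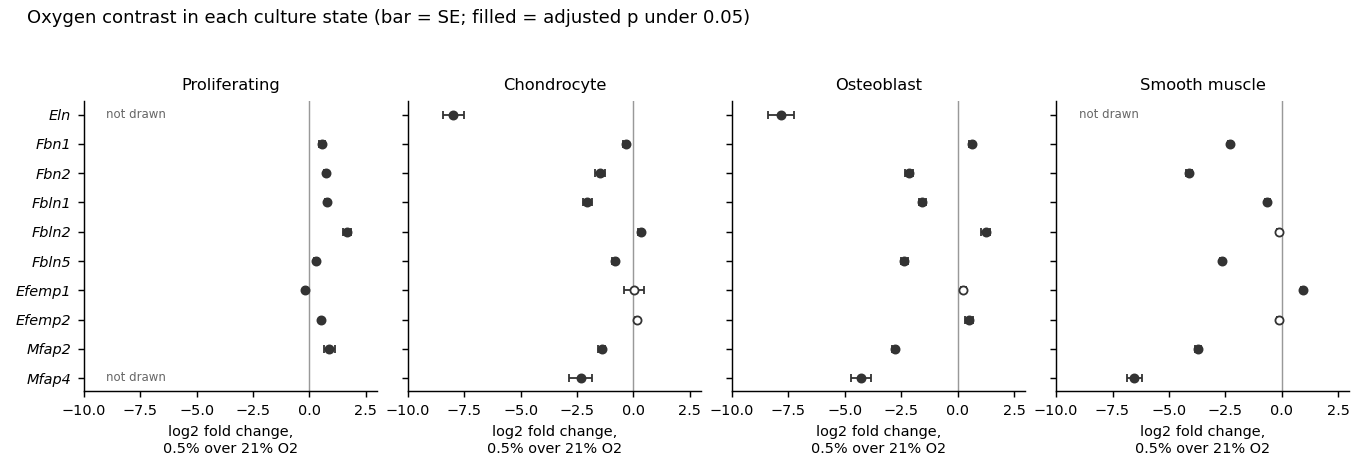
Fitted log2 fold change of 0.5% over 21% O2 for each gene in each culture state (bars, SE; filled points, adjusted p under 0.05). Eln in smooth muscle is not drawn because a group holds no count, nor are Eln and Mfap4 in proliferating cells, which were not tested; Eln sits near -8 in chondrocyte and osteoblast, and the proliferating panel has 7 of 8 points right of 0.

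Scaling by library size alone moved the median of all genes, and with it the split of all calls. In the smooth muscle contrast for oxygen the median became -1.49, and 15.6% of calls were rises, against 46.8% with TMM. The share of calls that were rises became 31.8% in chondrocyte (46.9% with TMM) and 36.9% in osteoblast (49.6% with TMM) for oxygen. Against proliferating cells it became 34.7% in normoxic chondrocyte (50.3%), 31.8% in hypoxic chondrocyte (50.2%), 38.2% in hypoxic osteoblast (50.8%) and 15.0% in hypoxic smooth muscle (48.3%). Eln, Fbn2, Fbln1, Fbln5, Mfap2 and Mfap4 fell at 0.5% O2 in the 3 differentiated states under this scaling too. The smooth muscle falls were larger under it, with log2 fold changes of -5.47 for Fbn2, -2.01 for Fbln1, -4.03 for Fbln5, -5.07 for Mfap2 and -7.90 for Mfap4.

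The difference between these oxygen effects was tested as an interaction, the change from proliferating cells at 0.5% O2 less that at 21% O2. In chondrocyte 7 members were called lower and none higher, against 21.9% and 21.6% of all genes. In osteoblast 5 were lower and 1, Efemp1, higher, against 25.3% and 28.9%. In smooth muscle 8 were lower and 1, Efemp1, higher, against 35.5% and 34.9%. Fbn2 (-2.18 ± 0.25, -2.82 ± 0.19 and -4.77 ± 0.13), Fbln1, Fbln5 and Mfap2 (-2.28 ± 0.30, -3.63 ± 0.23 and -4.53 ± 0.24) were lower in all 3. These terms share the proliferating libraries. For Eln both proliferating groups hold no count, so its fitted terms are no measure of size, and their adjusted p was 1 by edgeR in all 3 lineages. The Efemp1 term in smooth muscle (1.15 ± 0.10) was -0.18 under library size alone (adjusted p = 0.148), where 16.6% of all calls were higher, against 49.6% with TMM. The Mfap4 term passed in osteoblast (-3.65 ± 1.13, adjusted p = 0.0128) and smooth muscle (-5.91 ± 1.28, adjusted p = 0.000354) and missed in both without hypoxic proliferating replicate 1 (-1.50, adjusted p = 0.64, and -3.79, adjusted p = 0.228). Without replicate 1 of the hypoxic differentiated group the terms were -4.42 in osteoblast and -6.86 in smooth muscle.

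Among the normoxic lineages, smooth muscle was distinguished from chondrocyte by all 10 members, 7 higher and 3 lower, against 34.7% and 33.0% of all genes. Efemp1 was 4.93 ± 0.35 higher on the log2 scale (adjusted p = 1.02e-05), Mfap4 4.21 ± 0.32 (adjusted p = 4.00e-06) and Mfap2 3.75 ± 0.07 (adjusted p = 5.89e-14), while Eln, Fbn1 (-2.08 ± 0.09) and Fbln2 (-2.72 ± 0.09) were lower. Osteoblast against chondrocyte gave 6 higher and 2 lower, and without normoxic osteoblast replicate 4 also Eln and Efemp2 (-0.49, adjusted p = 4.26e-05) lower, against 31.1% and 28.6%, with Fbn1 (-2.02 ± 0.11, adjusted p = 8.11e-07) and Fbln2 (-2.70 ± 0.20, adjusted p = 5.10e-06) lower. Smooth muscle against osteoblast gave 5 higher and 3 lower, against 24.4% and 25.3%. There Fbln5 (-1.07 ± 0.11, adjusted p = 3.22e-05) was lower and Mfap4 (2.05 ± 0.23, adjusted p = 8.30e-05) higher in smooth muscle. Fbn2 was lower (-0.34 ± 0.11, adjusted p = 0.0255), a call lost under library size alone (-0.13, adjusted p = 0.364) and without normoxic smooth muscle replicate 1 (adjusted p = 0.0572) or 3 (adjusted p = 0.0793). Fbln2 did not pass (-0.03 ± 0.18, adjusted p = 0.922) and was 0.22 higher (adjusted p = 0.00104) without normoxic osteoblast replicate 4. Under library size alone the calls over all genes in these 3 comparisons were 74.4%, 65.7% and 71.6% higher, against 51.2%, 52.0% and 49.1% with TMM. Normoxic osteoblast and smooth muscle libraries both carried high smooth muscle marker sums, as given above, and the part of this in the comparison was not tested.

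The other genes of fibre assembly were followed in 3 lists. Among 6 cross-linking genes (the lysyl oxidases and the copper pump Atp7a), 6 rose with chondrocyte, 5 with osteoblast and 4 with smooth muscle medium at 21% O2, where Loxl3 and Loxl4 fell in smooth muscle, against 37.7%, 40.9% and 40.8% of all genes that rose. At 0.5% O2 the counts were 6, 6 and 0, against 34.9%, 36.2% and 33.8%, and all 6 fell in hypoxic smooth muscle, against 36.2% of all genes with TMM and 70.6% under library size alone. Their median log2 fold changes for oxygen were 1.47 in proliferating cells, 0.13 in chondrocyte, 0.38 in osteoblast and -1.64 in smooth muscle. Lox, which oxidises lysines of elastin and collagen, held a mean of 54.9 ± 3.09 CPM (SD, n = 4) in normoxic and 591 ± 8.92 CPM (SD, n = 3) in hypoxic proliferating cells, a log2 fold change of 3.48 ± 0.06 (adjusted p = 1.38e-14). In chondrocyte it held 5287 ± 668 and 7773 ± 1031 CPM at 21% and 0.5% O2 (0.55 ± 0.12, adjusted p = 0.00541), and in osteoblast 5779 ± 567 and 6338 ± 125 CPM (0.13 ± 0.10, adjusted p = 0.307). Lox was thus abundant in hypoxic chondrocyte and osteoblast, where every library held Eln at under 1 CPM. In smooth muscle it was 539 ± 35.4 and 163 ± 12.9 CPM (-1.67 ± 0.09, adjusted p = 1.31e-10). Loxl1, the oxidase that fibulin-5 anchors, fell at 0.5% O2 in all 4 states, with log2 fold changes of -0.78 ± 0.06, -0.76 ± 0.07, -1.06 ± 0.09 and -2.14 ± 0.11 in proliferating cells, chondrocyte, osteoblast and smooth muscle (adjusted p = 3.04e-08, 2.13e-05, 1.93e-05 and 2.01e-10).

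Of 17 microfibril partners and assembly proteins, 10 were tested for oxygen in proliferating cells. There 9 rose in hypoxia and none fell, against 33.1% and 32.3% of all genes. In chondrocyte and in osteoblast 14 were tested. Of these, 3 rose and 4 fell in chondrocyte, against 10.4% and 11.8% of all genes. In osteoblast 3 rose and 6 fell, against 27.0% and 27.3%. In smooth muscle 4 rose and 8 fell of 14 tested, against 35.4% and 40.2% of all genes, and 1 rose and 11 fell under library size alone, against 13.4% and 72.6%. The list's median log2 fold changes for oxygen were 0.52 in proliferating cells, 0.04 in chondrocyte, -0.57 in osteoblast and -0.67 in smooth muscle. Over normoxic proliferating cells, 11 rose and 1 fell of 13 tested in chondrocyte (all genes 37.7% and 37.2%). In osteoblast 12 rose and 2 fell of 14 (40.9% and 37.8%), and in smooth muscle 10 and 2 of 13 (40.8% and 38.9%). Over hypoxic proliferating cells the counts were 6 and 5 of 13, 11 and 1 of 13, and 4 and 5 of 10. Under library size alone all 10 fell in hypoxic smooth muscle, against 70.6% of all genes. Ltbp2, a fibrillin-binding relative of the latent TGF-beta binding proteins, held 168 ± 15.5 and 199 ± 10.6 CPM in normoxic and hypoxic chondrocyte (log2 fold change 0.24 ± 0.08, adjusted p = 0.0499) and 121 ± 27.9 and 10.2 ± 3.32 CPM in smooth muscle (-3.52 ± 0.23, adjusted p = 2.19e-08). Emilin1, a glycoprotein at the elastin and microfibril interface, did not pass in chondrocyte (-0.13 ± 0.12, adjusted p = 0.485), was lower in osteoblast (-0.87 ± 0.10, adjusted p = 0.000128) and fell in smooth muscle from 593 ± 61.8 to 51.7 ± 3.62 CPM (-3.46 ± 0.10, adjusted p = 2.48e-13). Mfap5, which encodes MAGP-2, did not pass in chondrocyte (0.76 ± 0.28, adjusted p = 0.0942), where Mfap2 fell; in normoxic osteoblast it held 2.81 to 3.67 CPM in 3 libraries and 19.9 CPM in replicate 4.

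**Figure D5:**
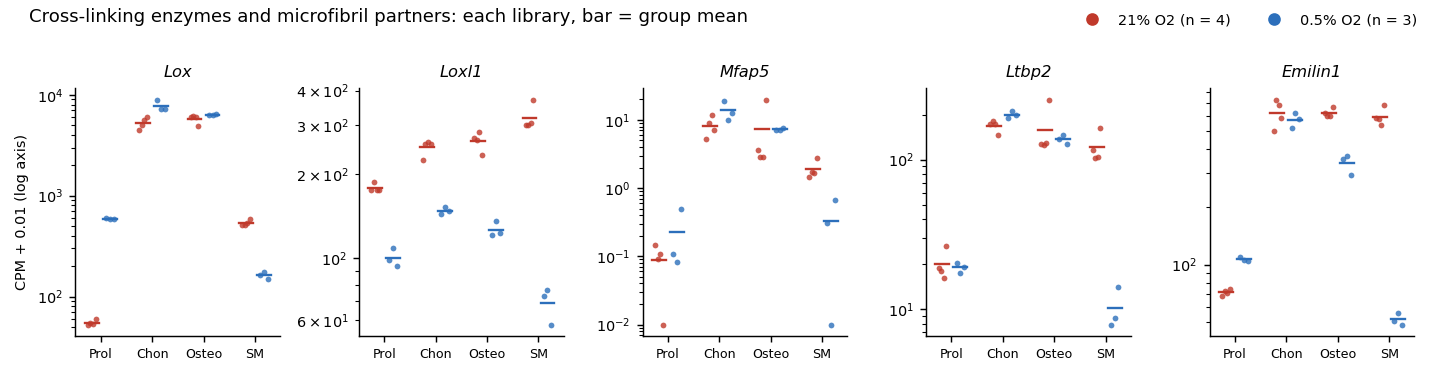
Level of Lox, Loxl1, Mfap5, Ltbp2 and Emilin1 in each library as CPM plus 0.01 on log axes (red, 21% O2; blue, 0.5% O2; bars, group means). Lox is high in both chondrocyte and osteoblast groups whatever the oxygen level, and Loxl1 is lower in blue in every state.

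Elastin-degrading proteases were sparsely detected, with 2 to 4 of 8 tested in any comparison. For oxygen, 1 rose and 1 fell of 3 in chondrocyte, 1 rose and 1 fell of 2 in osteoblast, and 1 rose and 2 fell of 3 in smooth muscle. The shares of all genes that rose and fell were 10.4% and 11.8%, 27.0% and 27.3%, and 35.4% and 40.2%, and with so few genes tested nothing is read from these counts. Mmp2, a gelatinase, had log2 fold changes of -0.59, -0.32 and -0.88 in these states, and the lysosomal protease gene Ctsl 0.71, 0.55 and 1.70, all past the test.

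The 5 genes whose group means over the 8 groups were most like those of Eln, of 4394 genes compared on log2(CPM + 1), were Wscd2 (Pearson r = 0.975), Erg (0.958), Fzd4 (0.950), Cxcl14 (0.929) and Fgfrl1 (0.924). Only named genes with a mean of at least 10 CPM in some group and a largest log2 difference between groups of at least 2 were compared. Erg held means of 15.7, 12.3 and 7.19 CPM in normoxic chondrocyte, osteoblast and smooth muscle and at most 0.0754 CPM in the other 5 groups. These correlations describe 8 points that share libraries and scaling, and have no test. Among the members, the most alike were Mfap2 and Mfap4 (r = 0.966), the member most like Eln was Fbln5 (0.804), and Fbn1 and Efemp1 were the least alike (-0.903).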

How the data were processed

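PolyA RNA from O9-1 cells was sequenced in 28 libraries of 8 groups, 4 per normoxic and 3 per hypoxic group, named from the labels. The deposited table holds raw counts per Ensembl gene, and 10 comparison tables from the authors hold log2 fold changes, which served only to check gene names (98 of 98 member entries were equal). Their 70 normalised per-library columns were not used. The submitters' processing notes name HISAT2 2.0.5, StringTie 1.3.3b, featureCounts 1.5.0-p3 and mm10; their roles, the annotation and the strand setting are not given in the sources used here, and the kit is stranded per the labels' protocols. Of 54429 gene IDs, 54314 matched a symbol in GENCODE M21, whose exon lengths gave values per kilobase.

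Counts were tested with edgeR 4.0.16 (R 4.3.3): TMM scaling, filterByExpr with a minimum count of 10 and total of 15, robust quasi-likelihood F tests on the groups compared, and Benjamini-Hochberg adjustment over all genes tested, with a call at an adjusted p under 0.05. Each SE is the log2 fold change divided by the root of F. There were 13 pairwise comparisons and 3 oxygen interactions. Levels in CPM (counts per 1000000) used TMM over all libraries. The scripts were tested on simulated counts. Alternatives were limma-voom (limma 3.58.1), DESeq2 1.42.0, its size factors (RLE) within edgeR, library size alone, no filter, 10 counts in every library, 1 fit over 8 groups, a replicate block and leaving out each library.

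No replicate pair differed by as little as sampling noise (chi-square per degree of freedom 2.89 to 97.1). With 19869271 to 64693346 counts per library, 3 counts over a group stood in for 0. Other genes were named by rule: the 5 most like Eln, up to 2 rises and 2 falls per list and comparison, and Lox, Loxl1, Mfap5, Ltbp2 and Emilin1. The members and lists were chosen with earlier results of these data known.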

Additional observations from a re-analysis of the deposited data

Results flagged for a closer look

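In normoxic groups, 39 sets of 4 libraries were screened for a library far from the rest (the gap to the nearest library over the range, above Dixon's 95% critical value), and 7 were flagged where chance gives about 1 in 20. Replicate 4 of normoxic osteoblast accounted for 6 of these. It held 84.3 CPM of Eln against 48.9 to 51.5 in the other 3 libraries, 475 CPM of Fbn2 against 340 to 363, 23.3 CPM of Fbln1 against 17.1 to 17.3, and 639 CPM of Fbln2 against 361 to 370. It also held 939 CPM of Fbln5 against 1344 to 1378 and 242 CPM of Efemp2 against 150 to 156. In normoxic proliferating cells, replicate 4 held 97.3 CPM of Fbn1 against 143 to 146.

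The effect of oxygen differed between proliferating cells and cultures in differentiation media by the interaction test for 22 values (edgeR quasi-likelihood test, adjusted p under 0.05). Hypoxic smooth muscle held 28.5 to 42.3 CPM of summed smooth muscle genes, against 36.3 to 43.3 CPM in hypoxic proliferating cells. In chondrocyte the terms were -0.91 for Fbn1, -2.18 for Fbn2, -2.81 for Fbln1, -1.34 for Fbln2, -1.13 for Fbln5, -0.36 for Efemp2 and -2.28 for Mfap2, on the log2 scale. In osteoblast they were -2.82 for Fbn2, -2.30 for Fbln1, -2.62 for Fbln5, 0.49 for Efemp1, -3.63 for Mfap2 and -3.65 for Mfap4. Smooth muscle gave -2.82 for Fbn1, -4.77 for Fbn2, -1.38 for Fbln1, -1.75 for Fbln2 and -2.93 for Fbln5. It also gave 1.15 for Efemp1, -0.61 for Efemp2, -4.53 for Mfap2 and -5.91 for Mfap4. The Efemp1 term in smooth muscle was -0.18 (adjusted p = 0.148) under library size alone. Without hypoxic proliferating replicate 1 the Mfap4 terms did not pass (-1.50 in osteoblast, adjusted p = 0.64, and -3.79 in smooth muscle, adjusted p = 0.228).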

How the results depend on the processing

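Leaving out 1 library moved the counts of members called by at most 2, and all 264 recounts stayed within 1.5 times the reported count. These counts take rises and falls together, so they do not show that the split between them is stable. Under library size alone the split turned in hypoxic smooth muscle, as given above. Of 2508 gene values, 2424 kept direction and call, 21 passed in neither fit and changed sign, 36 lost and 22 gained a call, and 5 reversed. Reversals under library size alone were Fbln5 (-0.96) and Efemp2 (-0.37) in hypoxic smooth muscle against hypoxic proliferating, Efemp1 in hypoxic against normoxic smooth muscle (-0.44), and the Efemp1 smooth muscle interaction (-0.18). Fbln2 in normoxic smooth muscle against osteoblast ranged from -0.11 without normoxic osteoblast replicate 3 to 0.22 without replicate 4. The cause was not tested. A single fit over 8 groups ended 8 calls: Fbln5 and Efemp1 for oxygen in proliferating cells, Fbln2 for oxygen in chondrocyte, Efemp1 in hypoxic osteoblast and Fbln5 in hypoxic smooth muscle against hypoxic proliferating, Fbn2 in normoxic smooth muscle against osteoblast, and the interactions of Efemp2 in chondrocyte and Efemp1 in osteoblast. It gained 1 call, Efemp2 in normoxic osteoblast against chondrocyte (-0.31, adjusted p = 0.011). The numbers do not pair libraries (correlations of residuals -0.28 to 0.19, none of 13 comparisons above 0.1 in every pair). With the replicate block, Fbn2 in hypoxic against normoxic chondrocyte became -1.35 (adjusted p = 0.0547), Efemp1 in osteoblast gained a call (0.17, adjusted p = 0.0368), and no other call changed. The Eln interaction, with adjusted p = 1 by edgeR, was called by limma-voom (chondrocyte -8.57, adjusted p = 0.0201) and DESeq2 (-8.54, adjusted p = 3.36e-06), but rests on proliferating groups with no count. Of the 5 genes most like Eln, 4 were shared with log2(CPM + 0.1) and 4 with single libraries in place of group means. Depth limits Eln and Mfap4 in hypoxic cells, which are not tested where 10 counts are required in every library.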
